A study of Mus musculus with 18 samples.

Results

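The livers compared here are those taken 24 h after a 2/3 partial hepatectomy, in which most of the liver mass is cut away and the remaining lobes grow, and those taken after a sham operation without resection. Membership follows the sample titles alone: 2 libraries titled 24 h after the operation and 2 titled sham, 4 of the 18 libraries of a time course. All mice were C57BL/6, and each library pooled the RNA of 3 mice, so that the comparison sets 6 mice per group, as 2 pools, against each other. The 24 h group carried the resection and the sham group the operation alone; neither had another treatment or allele in the labels, and the sex and age of the mice are not given there. The labels give the sham only as a control with no time of collection, so the effect of resection and that of the time of day or time since surgery cannot be told apart. Livers at 4 h and 48 h after resection, 2 pools each, are used below only to place the 24 h values in time.

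After resection, mature hepatocytes leave quiescence, pass through G1 and copy their DNA before they divide, while the tissue keeps up the secretion of plasma proteins, lipid handling and bile formation. Cyclin D1 and the E2F transcription factors drive the entry into S phase, the MCM helicase opens the DNA at replication origins, and the cyclin B kinase starts mitosis. Fat accumulates for a time in the regenerating liver, and many genes of the resting liver's metabolism are under hormonal and circadian control.

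The 18 libraries held 7.78 M to 9.16 M reads mapped to genes (M, 1000000). Sham pool 2 is listed only for its 8026 genes with at least 52 reads, so a gene missing there is unknown up to 6.55 CPM (counts per 1000000 reads, on the TMM scale), while the other 3 libraries are complete. The 8 hepatocyte markers fixed for the tissue check were all measured and summed to 135726 and 141479 CPM in sham and to 101172 and 99831 CPM at 24 h. In bulk tissue, here and below, fewer cells of a type and less RNA per cell cannot be told apart. The main test took the 8026 genes that both sham lists hold. Of these 405 were higher at 24 h (5.05% of the genes tested) and 532 lower (6.63%) by edgeR's quasi-likelihood test at a false discovery threshold of 0.05; 98 and 179 of them by at least 2-fold. In all 937 the 2 groups did not overlap, which was so for 4182 of the 8026 genes. A further 4173 genes, scarce in sham and unlisted in sham pool 2, were tested against sham pool 1 alone, whose own spread was taken to be that of the other groups. Among them 58 were higher (1.39%) and 22 lower (0.527%), and in 37 of the 58 both 24 h pools also lay above the bound of sham pool 2. Each p-value reflects how much pools of 3 mice varied, estimated over all groups of the course. The median log2 difference was -0.02 over the 8026 genes and 0.16 over the 4173. Scaled by library totals alone the median of the 8026 genes was 0.12 and the calls split into 820 higher and 360 lower, so directions of small changes below are relative to the TMM scale. The 937 calls became 930 without 24 h pool 1, 450 without 24 h pool 2, 269 without sham pool 1 and 342 without sham pool 2. The 80 calls of the second test became 85 without 24 h pool 1 and 17 without 24 h pool 2. Of the 218 called genes of the main test that belong to a gene list or are named for their size of change, 64 kept the call with each of the 4 libraries left out. For those of the others named below, the highest adjusted p of those 4 fits is given beside the result, with the library left out.

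**Figure D1:**
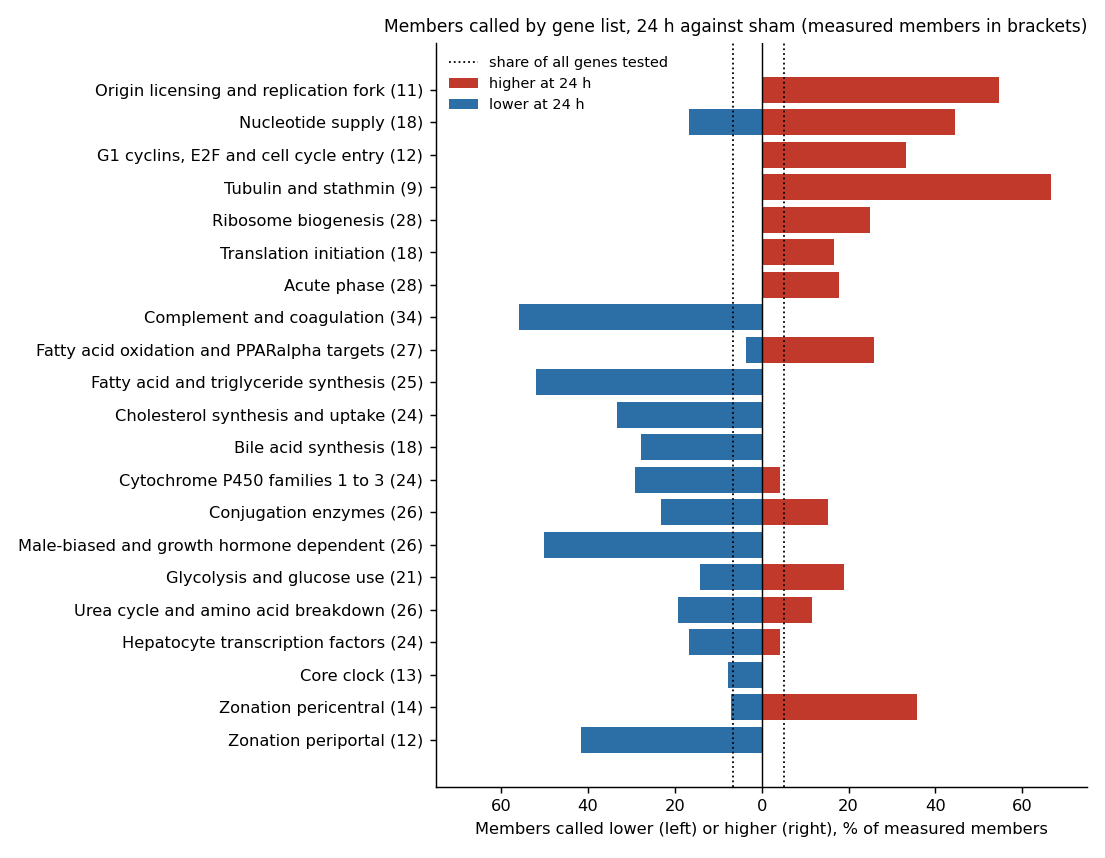
Share of the measured members of each gene list that were called higher (red, right) or lower (blue, left) at 24 h against sham in the main test, in % of measured members, with their number in brackets. The dotted lines mark the shares over all 8026 genes, 5.05% higher and 6.63% lower; the tubulin, replication and nucleotide lists extend to the right, and complement and coagulation, fatty acid synthesis and male-biased genes to the left.

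Genes of cell cycle entry and DNA replication rose at 24 h where they were called. Cyclin D1 (Ccnd1), the cyclin of G1 progression, was at 39.7 and 32.8 CPM in the sham pools and 142 and 133 CPM in the 24 h pools. The 24 h pools lay well apart from the sham pools, at log2 1.92 ± 0.27, adjusted p = 0.00123 (NCBI gene 12443, chromosome 7, 144929931 to 144939831 on GRCm38.p6, the build of all gene coordinates here). Cyclin E1 (Ccne1), which acts at the entry into S phase, was at 1.25 CPM in sham pool 1 and 8.66 and 13.2 CPM in the 24 h pools (log2 3.12 ± 0.60, adjusted p = 0.0181, and 0.06 without 24 h pool 2). Both 24 h pools stood above the bound of 6.55 CPM. E2f1, an activator of S phase genes, went from 4.74 to 11.2 and 14.1 CPM (log2 1.41 ± 0.31, adjusted p = 0.0327, and 0.119 without 24 h pool 2). E2f8, which limits E2F target genes, went from 11.7 and 10.1 to 23.1 and 26.4 CPM (log2 1.18 ± 0.23, adjusted p = 0.00634, and 0.0667 without sham pool 2). Of the 12 genes of the G1 list that both sham lists hold, 4 rose and 0 fell, with a median of 0.27 against -0.02 over all genes (4 without 24 h pool 1, 3 without 24 h pool 2, 3 without sham pool 1 and 1 without sham pool 2). In the second test 2 of 13 rose and 0 fell, with a median of 1.41 against 0.16. Myc, an early driver of growth, was not called: 16.2 and 7.43 CPM in the sham pools and 11.7 and 14.2 CPM in the 24 h pools (log2 0.13 ± 0.36, adjusted p = 0.864).

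Mcm6 and Mcm5 are subunits of the MCM helicase whose upstream sequences are printed because, of the 11 called key members of the replication, nucleotide and G1 lists that have a RefSeq upstream sequence, these and Mcm7 held an E2F motif, and the Mcm7 window overlaps annotated exons. Ccnd1, the other called key member, was not scanned. The bases before the annotated start are from RefSeq (GRCm38.p6), 5′ to 3′ on the strand of the gene, with each match to the E2F letters TTTCCCGC or TTTGGCGC, on either strand, in capitals. The Mcm5 window is chr8:75109259-75109467 on the plus strand, with 1 match. The match begins 149 bases before the end of the 250 upstream bases. The last 41 of these bases are included in that distance but not printed, because they lie within the gene's annotated span. The Mcm6 window is chr1:128359706-128359955 on the minus strand, with 2 matches that begin 110 and 47 bases before the start.
Mcm5: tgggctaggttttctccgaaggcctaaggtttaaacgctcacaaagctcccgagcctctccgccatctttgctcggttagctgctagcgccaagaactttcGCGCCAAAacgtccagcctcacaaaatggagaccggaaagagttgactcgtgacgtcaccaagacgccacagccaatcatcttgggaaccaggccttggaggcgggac
Mcm6: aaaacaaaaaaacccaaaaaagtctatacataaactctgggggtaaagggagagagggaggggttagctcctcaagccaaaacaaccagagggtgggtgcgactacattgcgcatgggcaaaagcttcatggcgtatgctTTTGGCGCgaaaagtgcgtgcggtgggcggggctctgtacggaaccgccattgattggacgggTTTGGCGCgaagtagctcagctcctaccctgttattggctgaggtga
In the 250 bases upstream, 6 of the 32 genes of the replication list with a RefSeq promoter (18.8%) held such a match, as did 5 of 18 genes of the G1 list (27.8%) and 1 of 22 of the nucleotide list (4.55%), against 1.35% of 27025 RefSeq promoters and 2.68% of the promoters of genes in both sham tables. Such a match was also in 2 of 16 promoters of the DNA repair list (12.5%) and 3 of 25 of the ribosome biogenesis list (12%). The mitosis list held it in 0 of 31, and many lists outside the cell cycle held none. Among called genes the shares were 3.37% of 326 higher and 2.15% of 418 lower in the main test. In the second test they were 13.3% of 45 higher and 8.33% (1 gene) of 12 lower, against 2.54% of 3262 promoters of genes unlisted in sham pool 2. The CCAAT box, the letters CCAAT on either strand, was in 68.8% of the replication list and in 24 of 31 promoters of the mitosis list (77.4%), against 34.5% of all RefSeq promoters. Lists outside the cell cycle held it as well, with 14 of 16 promoters of the cholesterol list (87.5%), 17 of 20 of the ER stress list (85.0%) and 7 of 10 of the plasma carrier list (70.0%). A match is a description of the letters and not of binding.

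Mcm6 was at 11.985 and 9.32 CPM in the sham pools and 70.6 and 66.5 CPM in the 24 h pools (log2 2.68 ± 0.30, adjusted p = 0.000214; gene 17219, chromosome 1, 128331575 to 128359705). Mcm5 was at 6.11 CPM in sham pool 1 and 47.0 and 44.4 CPM in the 24 h pools (log2 2.90 ± 0.43, adjusted p = 0.00464). Mcm7 was at 17.977 and 15.6 CPM in the sham pools and 44.0 and 47.7 CPM in the 24 h pools (log2 1.45 ± 0.26, adjusted p = 0.00434). In each, both 24 h pools lay above every listed sham value. Pcna, the sliding clamp of the replication fork, went from 25.5 and 26.7 to 63.6 and 55.9 CPM (log2 1.19 ± 0.21, adjusted p = 0.00324). Lig1, the ligase that joins Okazaki fragments, went from 4.99 to 34.1 and 36.2 CPM (log2 2.81 ± 0.37, adjusted p = 0.00199). Rfc2, a subunit of the clamp loader, went from 19.7 and 17.8 to 35.5 and 42.0 CPM (log2 1.05 ± 0.14, adjusted p = 0.000735). Pole, the catalytic subunit of a replicative polymerase, went from 2.49 to 14.8 and 12.031 CPM (log2 2.42 ± 0.52, adjusted p = 0.0279, and 0.0583 without 24 h pool 2). Uhrf1, which guides maintenance methylation of new DNA, went from 2.24 to 8.77 and 17.8 CPM (log2 2.56 ± 0.50, adjusted p = 0.0191, and 0.0649 without 24 h pool 2). The replication list had 6 rises and 0 falls among 11 genes in both tables (median 0.91; 6 without 24 h pool 1, 5 without 24 h pool 2, 4 without sham pool 1 and 5 without sham pool 2), and 9 rises and 0 falls among 31 in the second test (median 1.47; 10 without 24 h pool 1 and 3 without 24 h pool 2). The origin licensing genes Cdc6 was at 0.499 CPM in sham pool 1 and 3.13 and 7.30 CPM in the 24 h pools (log2 3.35 ± 0.96, adjusted p = 0.081). Cdt1 was at 2.62 CPM in sham pool 1 and 4.91 and 11.3 CPM in the 24 h pools (log2 1.63 ± 0.52, adjusted p = 0.112). Neither passed the test.

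Genes of nucleotide supply rose in part. Both subunits of ribonucleotide reductase, which makes deoxynucleotides, rose: Rrm1 from 13.5 and 13.4 to 43.4 and 48.0 CPM (log2 1.77 ± 0.25, adjusted p = 0.00105). Rrm2 went from 9.49 and 8.44 to 33.2 and 33.5 CPM (log2 1.89 ± 0.43, adjusted p = 0.0141, and 0.101 without sham pool 2). Deoxycytidine kinase Dck went from 7.49 and 6.68 to 14.0 and 14.9 CPM (log2 1.03 ± 0.25, adjusted p = 0.0174, and 0.117 without sham pool 2). Thymidylate synthase Tyms was at 6.48 CPM in sham pool 1 and 10.5 and 9.67 CPM in the 24 h pools (log2 0.64 ± 0.32, adjusted p = 0.328). Thymidine kinase Tk1 was at 1.12 CPM in sham pool 1 and 1.25 and 0.823 CPM in the 24 h pools (log2 -0.11 ± 0.73, adjusted p = 0.962). Both missed the threshold. Of 18 genes of the list held by both sham lists, 8 rose and 3 fell; the rises became 5 without 24 h pool 1, 3 without 24 h pool 2, 1 without sham pool 1 and 2 without sham pool 2. Of the 3 that fell, Upp2 and Dpyd break pyrimidines down and Shmt1 belongs to one-carbon metabolism. Upp2, a uridine phosphorylase, had the largest of these falls, from 130.3 and 229 to 16.8 and 10.033 CPM (log2 -3.75 ± 0.31, adjusted p = 4.14e-05).

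Mitotic genes mostly lay above sham pool 1 at 24 h, and 29 of 34 missed the threshold. The 34 genes of the mitosis list in the second test summed to 85.2 CPM in sham pool 1 and to 272 and 303 CPM in the 24 h pools, and the fitted difference was above 0 for each. Of these 5 rose and 0 fell (median 1.54 against 0.16 over the 4173 genes; 3 without 24 h pool 1 and 0 without 24 h pool 2), and only 1 of the 35 measured members, the condensin subunit Smc4, was listed in sham pool 2. Top2a, the topoisomerase of chromosome segregation, went from 4.99 to 30.4 and 27.7 CPM (log2 2.54 ± 0.51, adjusted p = 0.0206, and 0.0563 without 24 h pool 2). Cdk1, the mitotic kinase, went from 2.49 to 11.4 and 14.8 CPM (log2 2.39 ± 0.53, adjusted p = 0.0321, and 0.103 without 24 h pool 2). Prc1, a protein of the spindle midzone, went from 1.4964 to 12.002 and 12.3 CPM (log2 3.01 ± 0.72, adjusted p = 0.0423, and 0.108 without 24 h pool 2). Cyclin B1 (Ccnb1) was at 2.12 CPM in sham pool 1 and 4.07 and 3.80 CPM in the 24 h pools (log2 0.89 ± 0.71, adjusted p = 0.581). The mitotic kinase Plk1 was at 1.87 CPM in sham pool 1 and 5.43 and 10.5 CPM in the 24 h pools (log2 2.08 ± 0.70, adjusted p = 0.131). Neither passed the test. The neighbouring times place these levels. From 24 to 48 h, 512 of 12199 genes were higher (4.2%) and 290 lower (2.38%); among them were 32 of 35 mitosis genes higher and 0 lower, against 2 higher and 0 lower of 42 replication genes. Between 24 and 48 h the log2 difference of Ccnb1 was 4.45 ± 0.45, adjusted p = 0.000261, that of Plk1 3.76 ± 0.42, adjusted p = 0.000374, and that of Cdk1 2.50 ± 0.32, adjusted p = 0.000857. For Mcm6 the difference was -0.27 ± 0.25, adjusted p = 0.54, and for Pcna -0.16 ± 0.19, adjusted p = 0.65. From 4 to 24 h, 1422 genes were higher (11.7%) and 1308 lower (10.7%), with 35 of the 42 replication genes higher and 0 lower, and 17 of 35 mitosis genes. Scaled by totals alone the 4 to 24 h calls were 4582 higher and 511 lower. Between 24 and 48 h, the calls over all genes became 221 without 24 h pool 1, 1222 without 24 h pool 2, 235 without 48 h pool 1 and 222 without 48 h pool 2. Between 4 and 24 h they became 2565 without 24 h pool 1, 1919 without 24 h pool 2, 1653 without 4 h pool 1 and 1702 without 4 h pool 2, from 2730.

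**Figure D2:**
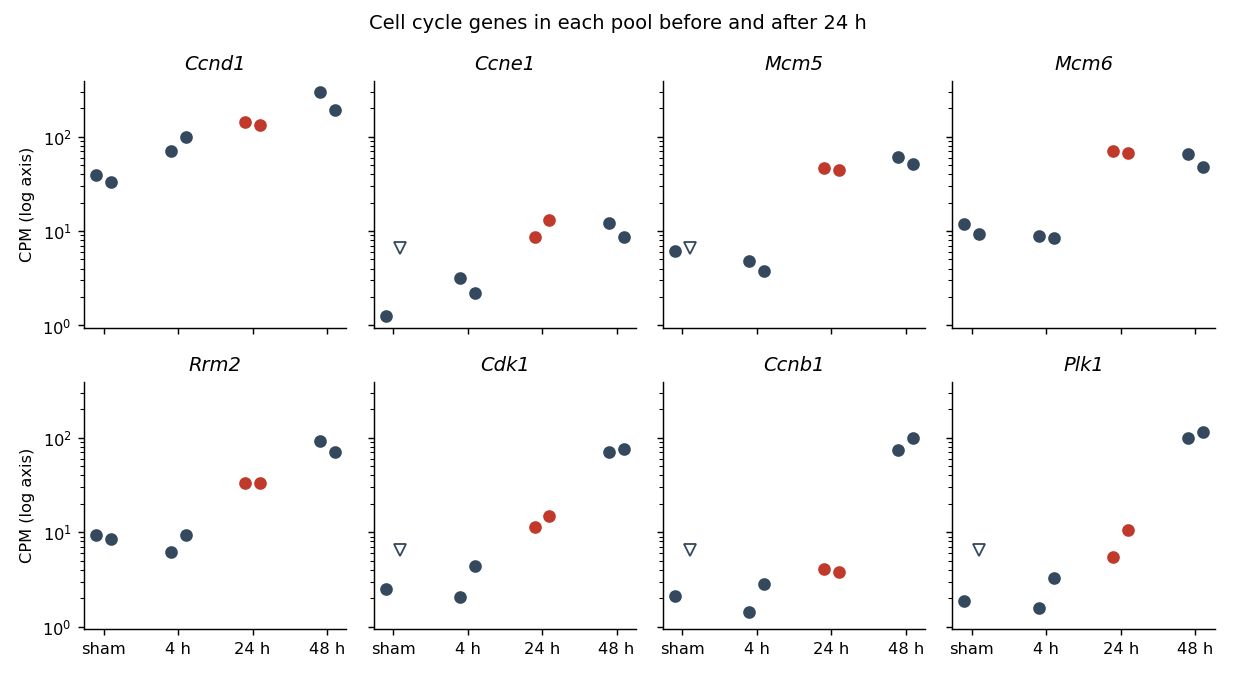
CPM of 8 cell cycle genes in each pool of sham, 4 h, 24 h (red) and 48 h, on a log axis; an open triangle marks the upper bound of 6.55 CPM for a gene unlisted in sham pool 2. Ccnd1, Ccne1, Mcm5, Mcm6 and Rrm2 were above sham pool 1 in both 24 h pools by several times, while Ccnb1 was at 4.07 and 3.80 CPM at 24 h and rose by 48 h.

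Tubulin genes and part of the growth machinery rose. Of 9 genes of the tubulin list 6 rose and 0 fell (median 0.95; 6 without 24 h pool 1, 3 without 24 h pool 2, 3 without sham pool 1 and 2 without sham pool 2). Tubb5, a beta tubulin, went from 98.5 and 80.0 to 194 and 237 CPM (log2 1.27 ± 0.16, adjusted p = 0.000442). Tubb2a went from 57.4 and 66.0 to 120.3 and 118 CPM (log2 0.95 ± 0.16, adjusted p = 0.00309). Stmn1, stathmin, which destabilises microtubules, went from 14.9 and 12.6 to 46.2 and 53.2 CPM (log2 1.86 ± 0.35, adjusted p = 0.00545, and 0.0568 without sham pool 2). Tuba8, an alpha tubulin outside the list, went from 3.37 to 13.6 and 26.2 CPM in the second test (log2 2.56 ± 0.42, adjusted p = 0.00862). Tubulin paralogs share sequence, so the split of reads among them is uncertain. Of 28 genes of ribosome biogenesis 7 rose and 0 fell, with a median of 0.47 (6 without 24 h pool 1, 4 without 24 h pool 2, 2 without sham pool 1 and 2 without sham pool 2). Nop56, a core protein of snoRNP particles, went from 25.7 and 24.7 to 47.4 and 44.5 CPM (log2 0.87 ± 0.14, adjusted p = 0.00207). The nucleolar helicase Ddx21 went from 52.4 and 52.4 to 82.9 and 75.1 CPM (log2 0.59 ± 0.13, adjusted p = 0.0126, and 0.0841 without sham pool 1). Nucleolin Ncl was at 144 and 139 CPM in the sham pools and 254 and 163 CPM in the 24 h pools and did not pass (log2 0.56 ± 0.23, adjusted p = 0.141). Eif4a1, the helicase of translation initiation, went from 309 and 299 to 508 and 495 CPM (log2 0.72 ± 0.12, adjusted p = 0.00226), 1 of 3 rises among 18 initiation factors (4 without 24 h pool 1, 1 without 24 h pool 2, 1 without sham pool 1 and 1 without sham pool 2). Of 31 proteasome subunits 4 rose and 0 fell (median 0.30; 3 without 24 h pool 1, 2 without 24 h pool 2, 0 without sham pool 1 and 2 without sham pool 2), and scaled by library totals alone 17 rose, as did 13 of the ribosome biogenesis genes and 7 of the initiation factors. Of 28 genes of oxidative phosphorylation 0 rose and 1 fell (median -0.16), Ndufa1, a subunit of complex I, at log2 -0.58 ± 0.16, adjusted p = 0.0376, and 0.172 without sham pool 1. The cold-inducible RNA-binding protein gene Rbm3 went from 14.4 and 17.8 to 61.3 and 60.3 CPM (log2 1.92 ± 0.22, adjusted p = 0.000266). Egln3, an oxygen-sensing prolyl hydroxylase, went from 14.2 and 15.4 to 68.5 and 48.1 CPM (log2 1.98 ± 0.22, adjusted p = 0.000212).

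Genes that make fatty acids and triglycerides fell where they were called. Of the 25 that both sham lists hold, 13 fell and 0 rose (median -0.72 against -0.02 over all genes; 10 without 24 h pool 1, 9 without 24 h pool 2, 8 without sham pool 1 and 6 without sham pool 2). Thrsp, an inducer of lipogenesis, was at 365 and 448 CPM in the sham pools and 48.3 and 38.9 CPM in the 24 h pools (log2 -3.22 ± 0.39, adjusted p = 0.000397; gene 21835, chromosome 7, 97412933 to 97417550). Lpin1, a phosphatidate phosphatase of triglyceride synthesis, was at 172 and 456 CPM in the sham pools and 36.5 and 31.9 CPM in the 24 h pools (log2 -3.20 ± 0.50, adjusted p = 0.00197). The sham values lay apart from each other, and both were far above both 24 h values. Mlxipl (ChREBP), the glucose-responsive activator of lipogenesis, was at 132 and 115 CPM in the sham pools and 52.8 and 47.9 CPM in the 24 h pools (log2 -1.29 ± 0.19, adjusted p = 0.00148). Enzymes of the pathway fell too. Acly, which makes cytosolic acetyl-CoA, went from 359.9 and 391.95 to 135 and 151 CPM (log2 -1.40 ± 0.31, adjusted p = 0.012, and 0.0673 without sham pool 2). The acetyl-CoA carboxylase Acacb went from 133 and 114 to 33.7 and 35.7 CPM (log2 -1.83 ± 0.30, adjusted p = 0.00275). Fasn, fatty acid synthase, went from 386 and 419 to 103 and 133 CPM (log2 -1.77 ± 0.48, adjusted p = 0.0303, and 0.115 without sham pool 2). The desaturase Scd1 went from 5402 and 5359.9 to 1382 and 2252 CPM (log2 -1.57 ± 0.33, adjusted p = 0.0104, and 0.0581 without 24 h pool 1). Srebf1, which encodes the insulin-responsive activator of the same enzymes, was at 151 and 145 CPM in the sham pools and 104 and 128 CPM in the 24 h pools and did not pass (log2 -0.35 ± 0.23, adjusted p = 0.378). From 24 to 48 h 8 genes of the list were higher and 0 lower, among them Fasn (log2 2.30 ± 0.49, adjusted p = 0.015) and Acly (1.46 ± 0.31, adjusted p = 0.0147).

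Cholesterol genes fell where they were called. Of 24 measured 8 fell and 0 rose (median -0.69), but the falls became 2 without 24 h pool 1, 3 without 24 h pool 2, 2 without sham pool 1 and 1 without sham pool 2. Sc5d, a late enzyme of sterol synthesis, went from 397 and 453 to 169.7 and 134 CPM (log2 -1.48 ± 0.18, adjusted p = 0.000338). Insig1, which holds the SREBP activators in the endoplasmic reticulum, went from 259 and 339 to 73.8 and 78.1 CPM (log2 -1.98 ± 0.43, adjusted p = 0.0108, and 0.0696 without sham pool 2).

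Targets of PPARalpha, the receptor that turns on fatty acid oxidation in fasting, split. The microsomal omega-hydroxylase Cyp4a14 was at 6.74 and 16.1 CPM in the sham pools and 1033 and 251 CPM in the 24 h pools (log2 5.81 ± 1.03, adjusted p = 0.00383, and 0.055 without sham pool 1; gene 13119, chromosome 4, 115486200 to 115496158). Its relative Cyp4a10 was at 20.7 and 66.9 CPM in the sham pools and 573 and 169 CPM in the 24 h pools (log2 3.08 ± 0.74, adjusted p = 0.0181, and 0.152 without sham pool 1). Cyp4a31 went from 5.99 to 45.6 and 38.4 CPM (log2 2.81 ± 0.38, adjusted p = 0.00253); reads of the Cyp4a family may be split among members. In Cyp4a14 and Cyp4a10, 24 h pool 1 lay well above pool 2, and the sham pools differed too. Vnn1, a pantetheinase, went from 14.4 and 15.6 to 58.7 and 26.4 CPM (log2 1.50 ± 0.31, adjusted p = 0.00888, and 0.0778 without sham pool 1). Acadl, an acyl-CoA dehydrogenase, went from 164 and 159.5 to 347 and 223 CPM (log2 0.82 ± 0.18, adjusted p = 0.0113, and 0.0806 without sham pool 2). The thioesterase gene Acot2 went from 0.624 to 8.45 and 4.63 CPM in the second test (log2 3.36 ± 0.60, adjusted p = 0.0128). Its value in 24 h pool 2 lay below 6.55 CPM, the bound under which sham pool 2 is unknown. Other targets did not pass: Cpt1a, the gate of mitochondrial oxidation, was at 237 and 266 CPM in the sham pools and 251 and 234 CPM in the 24 h pools (log2 -0.05 ± 0.17, adjusted p = 0.886). Ppara itself was at 188 and 144 CPM in the sham pools and 158 and 120.5 CPM in the 24 h pools (log2 -0.26 ± 0.27, adjusted p = 0.595). Pdk4, which restrains glucose oxidation, was at 9.10 CPM in sham pool 1 and 8.04 and 8.43 CPM in the 24 h pools (log2 -0.14 ± 0.45, adjusted p = 0.919). Of the 27 that both sham lists hold, 7 rose and 1 fell, with a median of 0.17 (2 without 24 h pool 1, 5 without 24 h pool 2, 0 without sham pool 1 and 2 without sham pool 2 for the rises). The fall was Acaa1b, a peroxisomal thiolase, from 291 and 281 to 127 and 89.0 CPM (log2 -1.41 ± 0.31, adjusted p = 0.0126, and 0.0931 without 24 h pool 2). The median difference of pool 1 from pool 2 over the list was 0.40 on the log2 scale at 24 h and -0.01 in sham.

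Apolipoproteins went both ways. Apoa4, an apolipoprotein of triglyceride-rich particles, was at 88.6 and 138 CPM in the sham pools and 1995 and 456 CPM in the 24 h pools (log2 3.43 ± 0.56, adjusted p = 0.00236). Apoc2, the cofactor of lipoprotein lipase, was at 160.2 and 186 CPM in the sham pools and 338 and 375 CPM in the 24 h pools (log2 1.04 ± 0.18, adjusted p = 0.00292). The large Apoa4 value came from pool 1, and pool 2 was also above both sham pools. The other 6 called members of 16 fell (2 without 24 h pool 1, 2 without 24 h pool 2, 1 without sham pool 1 and 1 without sham pool 2; 3 scaled by totals alone): Apoc1 from 2292 and 2541 to 1257 and 1427 CPM (log2 -0.85 ± 0.13, adjusted p = 0.00167). Apoa1 went from 8174 and 9867 to 6488 and 5608 CPM (log2 -0.58 ± 0.16, adjusted p = 0.0303, and 0.213 without sham pool 2), with Apoe (-0.64), Apoh (-0.58), Apom (-0.42) and Apoa2 (-0.54) on the log2 scale, of which left-out libraries ended the calls of Apoe (0.102 without sham pool 2), Apoh (0.121 without sham pool 2), Apom (0.156 without sham pool 2) and Apoa2 (0.25 without sham pool 2). Lipc, hepatic lipase, went from 122 and 126 to 61.3 and 53.1 CPM (log2 -1.12 ± 0.14, adjusted p = 0.000389).

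**Figure D3:**
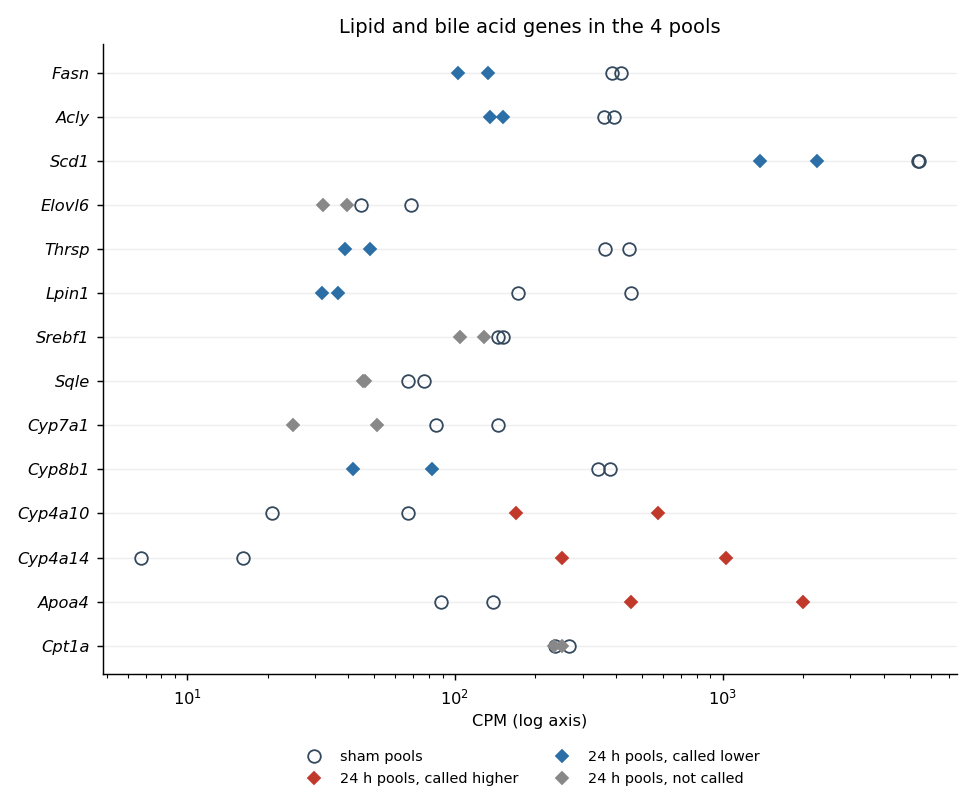
CPM of lipid and bile acid genes in the 2 sham pools (open circles) and the pools at 24 h (diamonds; red higher, blue lower, grey not called) on a log axis. Thrsp, Lpin1, Acly and Fasn lie to the left of sham in both 24 h pools, Cyp4a14, Cyp4a10 and Apoa4 to the right with the pools far apart, while the pools of Cpt1a overlap with sham.

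Genes of glucose use went both ways. The liver pyruvate kinase Pklr was at 197 and 143 CPM in the sham pools and 52.4 and 53.03 CPM in the 24 h pools (log2 -1.69 ± 0.24, adjusted p = 0.00103). Lactate dehydrogenase Ldha was at 651 and 716 CPM in the sham pools and 1393 and 1489 CPM in the 24 h pools (log2 1.08 ± 0.15, adjusted p = 0.00105). Pkm, the pyruvate kinase of proliferating and other tissues, went from 20.1 and 21.5 to 34.4 and 59.4 CPM (log2 1.17 ± 0.32, adjusted p = 0.0325, and 0.243 without 24 h pool 2). The list had 4 rises and 3 falls among 21 genes (rises 4 without 24 h pool 1, 1 without 24 h pool 2, 1 without sham pool 1 and 1 without sham pool 2; falls 2 without 24 h pool 1, 3 without 24 h pool 2, 2 without sham pool 1 and 2 without sham pool 2). Glycogen phosphorylase Pygl went from 582 and 516 to 236 and 247 CPM (log2 -1.18 ± 0.15, adjusted p = 0.000481). Of the glycogen-targeting subunits of protein phosphatase, Ppp1r3c went from 73.2 and 64.1 to 150.3 and 123 CPM (log2 0.99 ± 0.23, adjusted p = 0.0142, and 0.108 without sham pool 2). Ppp1r3b went from 305 and 413 to 236 and 136 CPM (log2 -0.95 ± 0.27, adjusted p = 0.0348, and 0.226 without sham pool 2). The genes of the gluconeogenic enzymes did not pass: Pck1 was at 2073 and 2561 CPM in the sham pools and 1911 and 1976 CPM in the 24 h pools (log2 -0.25 ± 0.21, adjusted p = 0.499). G6pc was at 739 and 554 CPM in the sham pools and 455 and 419 CPM in the 24 h pools (log2 -0.57 ± 0.29, adjusted p = 0.241). Slc25a25, a mitochondrial carrier, rose from 127 and 71.4 to 207 and 236 CPM (log2 1.16 ± 0.20, adjusted p = 0.00343).

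In amino acid breakdown and the urea cycle 3 of 26 genes rose and 5 fell (falls 4 without 24 h pool 1, 5 without 24 h pool 2, 3 without sham pool 1 and 3 without sham pool 2). Ornithine transcarbamylase Otc went from 435 and 426 to 227 and 165 CPM (log2 -1.13 ± 0.19, adjusted p = 0.00324). The glutaminase of periportal cells Gls2 went from 324 and 422 to 159 and 197 CPM (log2 -1.07 ± 0.19, adjusted p = 0.00386). Haao, an enzyme of tryptophan breakdown, went from 359 and 391 to 178 and 185 CPM (log2 -1.05 ± 0.14, adjusted p = 0.000831). Mat1a, which makes S-adenosylmethionine, rose from 1745 and 2896 to 5446 and 6126 CPM (log2 1.32 ± 0.28, adjusted p = 0.00985, and 0.103 without sham pool 1). Arg1 was at 1214 and 1469.7 CPM in the sham pools and 1229 and 1484 CPM in the 24 h pools (log2 0.02 ± 0.15, adjusted p = 0.963). Cps1 was at 3699.9 and 3844 CPM in the sham pools and 4672 and 4182 CPM in the 24 h pools (log2 0.23 ± 0.17, adjusted p = 0.43). Neither passed the test. Inmt, an N-methyltransferase, was among the 12 largest falls, from 516 and 464 to 67.9 and 59.3 CPM (log2 -2.95 ± 0.22, adjusted p = 3.46e-05). Car3, a carbonic anhydrase abundant in liver, went from 3288 and 2291 to 465 and 182 CPM (log2 -3.11 ± 0.59, adjusted p = 0.00558).

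Genes of bile acid synthesis were lower where they were called, and hepatic transporters went both ways. Cyp27a1, which starts the acidic pathway of bile acid synthesis, went from 449 and 536 to 183 and 218 CPM (log2 -1.30 ± 0.21, adjusted p = 0.00236). Cyp8b1, the 12-alpha-hydroxylase that sets the bile acid mix, was at 378 and 342 CPM in the sham pools and 82.0 and 41.8 CPM in the 24 h pools (log2 -2.54 ± 0.77, adjusted p = 0.0499, and 0.226 without 24 h pool 2). The call of Cyp8b1 ended with any 1 of the 4 libraries left out. The rate-limiting Cyp7a1 was at 146 and 85.3 CPM in the sham pools and 51.3 and 24.9 CPM in the 24 h pools and did not pass (log2 -1.60 ± 0.66, adjusted p = 0.138). Of 18 genes of the list 5 fell and 0 rose (median -0.53; 5 without 24 h pool 1, 3 without 24 h pool 2, 3 without sham pool 1 and 3 without sham pool 2), among them Baat, which conjugates bile acids (log2 -0.89 ± 0.15, adjusted p = 0.00327), and Slc27a5, a bile acyl-CoA synthetase (log2 -1.09 ± 0.20, adjusted p = 0.00463). Of 15 hepatic transporters 2 rose and 1 fell; without sham pool 1 none of them was called. The export pump Abcb11 fell from 703 and 689 to 421 and 411 CPM (log2 -0.74 ± 0.15, adjusted p = 0.00656, and 0.0524 without sham pool 1). The phospholipid floppase Abcb4 rose from 173 and 179.8 to 305 and 247 CPM (log2 0.64 ± 0.15, adjusted p = 0.0155, and 0.11 without sham pool 1). The other rise was the organic anion transporter Slco1a4, from 23.0 and 19.8 to 51.1 and 31.7 CPM (log2 0.95 ± 0.27, adjusted p = 0.0374, and 0.208 without 24 h pool 1).

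Of 24 genes of the cytochrome P450 list 7 fell and 1 rose (median -0.42; falls 8 without 24 h pool 1, 3 without 24 h pool 2, 2 without sham pool 1 and 3 without sham pool 2). Cyp2c70 went from 1492 and 1236 to 385 and 391.68 CPM (log2 -1.81 ± 0.15, adjusted p = 3.89e-05). Cyp2f2 went from 2297 and 2008 to 618 and 681 CPM (log2 -1.73 ± 0.19, adjusted p = 0.000212). The rise was Por, the reductase that serves all microsomal P450s, from 218 and 337 to 452 and 489 CPM (log2 0.76 ± 0.18, adjusted p = 0.0181, and 0.165 without sham pool 1). The abundant drug-metabolising Cyp3a11 was at 3833 and 3794 CPM in the sham pools and 3797 and 3126 CPM in the 24 h pools (log2 -0.14 ± 0.33, adjusted p = 0.836). Cyp2e1 was at 5951 and 7275 CPM in the sham pools and 6922 and 5105 CPM in the 24 h pools (log2 -0.14 ± 0.20, adjusted p = 0.717). Neither passed the test. Cyp1a1, induced by the aryl hydrocarbon receptor, was at 1.37 CPM in sham pool 1 and 12.002 and 187 CPM in the 24 h pools (log2 6.16 ± 1.54, adjusted p = 0.049996, and 0.175 without 24 h pool 2), at the edge of the threshold and mostly from 1 pool. Conjugating enzymes split into 4 rises and 6 falls among 26 (rises 4 without 24 h pool 1, 1 without 24 h pool 2, 1 without sham pool 1 and 3 without sham pool 2; falls 7 without 24 h pool 1, 4 without 24 h pool 2, 3 without sham pool 1 and 4 without sham pool 2). Gstp1, a glutathione transferase, went from 853 and 744 to 329 and 360.3 CPM (log2 -1.21 ± 0.16, adjusted p = 0.000773). Gstm2 went from 73.0 and 75.5 to 174 and 275 CPM (log2 1.60 ± 0.25, adjusted p = 0.00197). Gstm3 was at 67.5 and 69.0 CPM in the sham pools and 137 and 578 CPM in the 24 h pools (log2 2.39 ± 0.66, adjusted p = 0.0328, and 0.361 without 24 h pool 2), high in pool 2. The glucuronosyltransferase Ugt2b1 went from 1355 and 1021 to 362 and 182 CPM (log2 -2.13 ± 0.35, adjusted p = 0.0025). Ugt2b38 went from 23.7 and 24.4 to 7.09 and 1.33 CPM (log2 -2.52 ± 0.65, adjusted p = 0.0248, and 0.133 without 24 h pool 2). How reads divide among near-alike members of the Cyp2c, Gstm and Ugt2b families is uncertain.

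Genes of the male-biased and growth hormone dependent list fell where they were called. The list also holds genes of growth hormone signalling and IGF binding, such as Stat5b, Ghr and Igfbp2. Of 26 measured 13 fell and 0 rose (median -0.98), and the falls became 15 without 24 h pool 1, 3 without 24 h pool 2, 1 without sham pool 1 and 4 without sham pool 2. Selenbp2, a selenium-binding protein, had the largest fall among the 12 genes named for their fall, at 984 and 707 CPM in the sham pools and 40.4 and 33.7 CPM in the 24 h pools (log2 -4.51 ± 0.53, adjusted p = 0.000338). The major urinary protein genes Mup9 and Mup12 are outside the list. Mup9 went from 48.4 and 51.9 to 9.07 and 9.32 CPM (log2 -2.45 ± 0.47, adjusted p = 0.00602). Mup12 went from 43.9 and 48.6 to 11.989 and 6.24 CPM (log2 -2.34 ± 0.37, adjusted p = 0.00206). Mup genes are near copies of each other, which makes both values uncertain. Stat5b, the transcription factor that growth hormone activates, went from 70.5 and 51.9 to 32.7 and 35.2 CPM (log2 -0.85 ± 0.18, adjusted p = 0.00968, and 0.111 without sham pool 1). The receptor Ghr was at 585 and 516 CPM in the sham pools and 433 and 265 CPM in the 24 h pools and did not pass (log2 -0.66 ± 0.25, adjusted p = 0.103). Igf1, its secreted target, was at 605 and 654 CPM in the sham pools and 717 and 563 CPM in the 24 h pools (log2 0.02 ± 0.20, adjusted p = 0.957). Across the list 24 h pool 1 lay above pool 2 by a median of 0.55 on the log2 scale, and sham pool 1 above sham pool 2 by 0.18.

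Among plasma protein genes some acute phase members were higher and complement and coagulation lower. Of 28 acute phase genes 5 rose and 0 fell (median 0.82; 5 without 24 h pool 1, 1 without 24 h pool 2, 0 without sham pool 1 and 6 without sham pool 2). Lcn2, lipocalin 2, which withholds iron from microbes, was at 83.3 and 655 CPM in the sham pools and 2981 and 4473 CPM in the 24 h pools (log2 3.34 ± 1.01, adjusted p = 0.0477, and 0.243 without sham pool 1; gene 16819, chromosome 2, 32384637 to 32387739). The sham pools lay far apart, and both lay below both 24 h pools. Apcs, serum amyloid P, was at 176 and 367 CPM in the sham pools and 892 and 1413 CPM in the 24 h pools (log2 2.09 ± 0.46, adjusted p = 0.0113, and 0.113 without sham pool 1). The serpin Serpina3m was at 293 and 444 CPM in the sham pools and 932 and 1060.3 CPM in the 24 h pools (log2 1.43 ± 0.26, adjusted p = 0.00415, and 0.055 without sham pool 1). Hp, haptoglobin, was at 3481 and 5569.5 CPM in the sham pools and 6827 and 10114 CPM in the 24 h pools (log2 0.90 ± 0.37, adjusted p = 0.134). The fibrinogen chain Fga was at 8271 and 8456 CPM in the sham pools and 9811 and 12814 CPM in the 24 h pools (log2 0.44 ± 0.26, adjusted p = 0.321). Both missed the threshold. From 4 to 24 h 15 of 30 acute phase genes were lower and 0 higher. The median difference of 24 h pool 1 from pool 2 over the list was -0.58 on the log2 scale, and that of sham pool 1 from sham pool 2 was -0.66.

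Of 34 complement and coagulation genes 19 fell and 0 rose (median -0.54 against -0.02 over all genes), and the falls became 14 without 24 h pool 1, 8 without 24 h pool 2, 5 without sham pool 1 and 8 without sham pool 2. Scaled by library totals alone, C1ra, C8a, Cfi, F9, F11 and Masp2 lost the call. Most of the 19 lost it when only the groups compared were fitted. Mbl2, mannose-binding lectin, went from 282 and 331 to 149.6 and 139.5 CPM (log2 -1.08 ± 0.12, adjusted p = 0.000292). Complement C2 went from 167 and 161 to 68.8 and 80.0 CPM (log2 -1.14 ± 0.14, adjusted p = 0.000338). C8g went from 37.8 and 39.3 to 20.9 and 19.1 CPM (log2 -0.95 ± 0.16, adjusted p = 0.00322). Protein C, Proc, went from 427 and 431 to 289 and 274 CPM (log2 -0.61 ± 0.11, adjusted p = 0.00522, and 0.0681 when only the groups compared were fitted). Prothrombin, F2, went from 1527 and 1678 to 1032 and 1178 CPM (log2 -0.54 ± 0.15, adjusted p = 0.0305, and 0.166 without sham pool 2). C3, which is also an acute phase protein, was at 9738 and 12949 CPM in the sham pools and 13617 and 17676 CPM in the 24 h pools and did not pass (log2 0.46 ± 0.24, adjusted p = 0.241). From 4 to 24 h 23 of the 34 were lower and 0 higher. Albumin, Alb, the main plasma protein, took 9.28% and 9.10% of the reads in sham and 6.63% and 5.40% at 24 h (log2 -0.76 ± 0.19, adjusted p = 0.0203, and 0.138 without 24 h pool 2). Serpina6, the carrier of glucocorticoids, fell from 188 and 236 to 71.7 and 75.1 CPM (log2 -1.53 ± 0.17, adjusted p = 0.000212). Transferrin, Trf, was at 16805 and 19674 CPM in the sham pools and 13778 and 22021 CPM in the 24 h pools and did not pass (log2 -0.03 ± 0.21, adjusted p = 0.953). Of 11 plasma carriers 5 fell and 0 rose (2 without 24 h pool 1, 1 without 24 h pool 2, 1 without sham pool 1 and 1 without sham pool 2), and 2 fell scaled by totals alone.

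Immediate early genes, which respond first to growth signals, fell where they were called. Egr1, a zinc finger factor, was at 264 and 283 CPM in the sham pools and 24.4 and 21.5 CPM in the 24 h pools (log2 -3.57 ± 0.41, adjusted p = 0.000297). Fos, a subunit of AP-1, was at 8.61 and 18.8 CPM in the sham pools and 1.67 and 0.921 CPM in the 24 h pools (log2 -3.39 ± 0.53, adjusted p = 0.00203). Ier2 went from 30.7 and 42.7 to 11.4 and 11.978 CPM (log2 -1.65 ± 0.26, adjusted p = 0.00206). Zfp36, which speeds the decay of cytokine messages, went from 123 and 123 to 48.3 and 65.0 CPM (log2 -1.12 ± 0.21, adjusted p = 0.00565). These were the 4 falls among 11 genes, with 0 rises, and each stood with any 1 library left out. Gadd45a, a stress-inducible growth arrest gene, fell from 9.10 to 0.731 and 0.617 CPM in the second test (log2 -3.73 ± 0.48, adjusted p = 0.00185). Its sham value is that of sham pool 1, and its level in sham pool 2 is unknown up to 6.55 CPM. Gdf15, a stress-induced cytokine, went from 21.1 and 24.7 to 2.61 and 3.28 CPM (log2 -2.95 ± 0.30, adjusted p = 0.000135). Jun, another AP-1 subunit, was at 24.3 and 28.1 CPM in the sham pools and 22.8 and 24.8 CPM in the 24 h pools (log2 -0.14 ± 0.14, adjusted p = 0.587). From 4 to 24 h 16 of 21 immediate early genes were lower and 1 higher, and from 24 to 48 h 5 were higher and 2 lower.

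Of 24 hepatocyte transcription factors 4 fell and 1 rose. Cebpa, which restrains proliferation and drives hepatocyte genes, went from 203 and 221 to 117 and 118 CPM (log2 -0.85 ± 0.17, adjusted p = 0.00823, and 0.0616 without sham pool 2). Klf15, a regulator of amino acid and glucose metabolism, went from 105 and 122 to 59.8 and 69.6 CPM (log2 -0.81 ± 0.14, adjusted p = 0.00292). The nuclear receptor Ppard went from 38.0 and 36.0 to 16.8 and 19.7 CPM (log2 -1.02 ± 0.19, adjusted p = 0.00558). The other fall was Egr1. Nr1i3 (CAR), a xenobiotic receptor, rose from 32.3 and 36.4 to 78.4 and 67.8 CPM (log2 1.09 ± 0.19, adjusted p = 0.00324). Hnf4a was at 837 and 1021 CPM in the sham pools and 768 and 780.3 CPM in the 24 h pools (log2 -0.26 ± 0.15, adjusted p = 0.277). Cebpb was at 50.9 and 65.1 CPM in the sham pools and 44.6 and 62.1 CPM in the 24 h pools (log2 -0.12 ± 0.18, adjusted p = 0.73). Neither of these factors passed. Of 13 core clock genes 1 fell and 0 rose (median -0.09, and 0.05 scaled by totals alone, where no gene of the list fell). That gene was Bhlhe40, a repressor of the clock, at log2 -0.65 ± 0.20, adjusted p = 0.0499, and 0.182 without 24 h pool 1. Arntl was at 39.6 and 38.2 CPM in the sham pools and 32.9 and 31.0 CPM in the 24 h pools (log2 -0.28 ± 0.12, adjusted p = 0.158). Per2 was at 10.986 and 6.55 CPM in the sham pools and 14.5 and 8.80 CPM in the 24 h pools (log2 0.41 ± 0.43, adjusted p = 0.595). Nr1d1 was at 5.99 and 8.82 CPM in the sham pools and 5.63 and 11.3 CPM in the 24 h pools (log2 0.19 ± 0.39, adjusted p = 0.809). None of the last 3 was called, and a p that misses the threshold does not show equal phase. From 4 to 24 h 6 of 16 core clock genes were higher and 1 lower, with Per2 at 2.74 ± 0.52, adjusted p = 0.00233 and Nr1d1 at 2.04 ± 0.48, adjusted p = 0.00865.

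Genes of the pericentral and the periportal end of the liver lobule mostly went in opposite directions where they were called. Of 14 pericentral genes, many of them Wnt targets, 5 rose and 1 fell (median 0.66; rises 5 without 24 h pool 1, 4 without 24 h pool 2, 1 without sham pool 1 and 4 without sham pool 2). Oat, ornithine aminotransferase, was at 346 and 464 CPM in the sham pools and 1279 and 1353 CPM in the 24 h pools (log2 1.70 ± 0.16, adjusted p = 8.04e-05). Axin2, a feedback inhibitor of Wnt signalling, was at 4.12 and 6.93 CPM in the sham pools and 16.993 and 18.1 CPM in the 24 h pools (log2 1.67 ± 0.34, adjusted p = 0.00756, and 0.0909 without sham pool 1). Lect2 went from 109.6 and 125 to 219.7 and 195 CPM (log2 0.83 ± 0.15, adjusted p = 0.00424, and 0.055 without sham pool 1). Rnf43, which removes Wnt receptors from the surface, went from 9.11 and 10.3 to 16.5 and 18.8 CPM (log2 0.86 ± 0.20, adjusted p = 0.0152, and 0.126 without sham pool 1). Glul, glutamine synthetase, which marks the cells around the central vein, was at 1149 and 1333 CPM in the sham pools and 1473 and 1365 CPM in the 24 h pools and did not pass (log2 0.19 ± 0.17, adjusted p = 0.512). Lgr5, of the same list, did not pass either, at 8.86 and 7.18 CPM in the sham pools and 15.012 and 12.2 CPM in the 24 h pools (log2 0.76 ± 0.30, adjusted p = 0.124). The fall was Rhbg, an ammonium transporter, from 9.99 and 10.2 to 5.84 and 2.56 CPM (log2 -1.27 ± 0.36, adjusted p = 0.0365, and 0.22 without 24 h pool 2). Of 12 periportal genes 5 fell and 0 rose (median -0.55; 5 without 24 h pool 1, 4 without 24 h pool 2, 3 without sham pool 1 and 4 without sham pool 2): besides Cyp2f2, Gls2 and Alb these were Pigr, the receptor that carries IgA into bile, from 1213 and 1385 to 652 and 562 CPM (log2 -1.10 ± 0.15, adjusted p = 0.000958). Hsd17b13, a lipid droplet enzyme, went from 386 and 377 to 250.2 and 239 CPM (log2 -0.64 ± 0.13, adjusted p = 0.00854, and 0.0605 without sham pool 1).

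In the main test the TGF-beta, activin and Hippo list and the growth factor and receptor list held 1 call each. Over all 8026 genes 5.05% were higher and 6.63% lower. Inhbe, the activin beta E subunit secreted by hepatocytes, was at 12.7 and 12.9 CPM in the sham pools and 58.6 and 51.7 CPM in the 24 h pools (log2 2.11 ± 0.40, adjusted p = 0.00549, and 0.055 without sham pool 1), and was the only call among 10 genes of the TGF-beta, activin and Hippo list. Of 12 growth factor and receptor genes 1 fell and 0 rose. That was Erbb3, a receptor of the EGF family, from 57.4 and 41.1 to 21.4 and 33.4 CPM (log2 -0.85 ± 0.21, adjusted p = 0.0216, and 0.215 without sham pool 1). Met, the HGF receptor, was at 73.8 and 60.2 CPM in the sham pools and 68.4 and 49.0 CPM in the 24 h pools (log2 -0.19 ± 0.18, adjusted p = 0.555). Egfr was at 792 and 803 CPM in the sham pools and 592 and 599.9 CPM in the 24 h pools (log2 -0.42 ± 0.23, adjusted p = 0.267). Hgf itself was at 5.61 CPM in sham pool 1 and 8.56 and 5.76 CPM in the 24 h pools (log2 0.35 ± 0.51, adjusted p = 0.79). The cell cycle inhibitor Cdkn1a (p21) was at 44.6 and 92.7 CPM in the sham pools and 99.0 and 82.5 CPM in the 24 h pools and did not pass (log2 0.40 ± 0.33, adjusted p = 0.477). It was lower at 24 h than at 4 h by log2 (-2.24 ± 0.26, adjusted p = 9.02e-05). Slc16a5, a member of the monocarboxylate transporter family, rose from 1.62 to 25.9 and 29.2 CPM (log2 4.07 ± 0.47, adjusted p = 0.0009). Ly6d, a GPI-anchored surface protein, was at 0.249 CPM in sham pool 1 and 10.2 and 55.2 CPM in the 24 h pools (log2 6.96 ± 1.71, adjusted p = 0.047, and 0.134 without 24 h pool 2). Its sham value rests on 2 reads: the mean of the 24 h pools was 131 times the sham value, with an exact 95% Poisson interval of 36.3 to 1083 for counting error in sham alone.

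Markers of other cell types were measured in the same RNA. Marco, a scavenger receptor of macrophages, was at 22.2 and 14.7 CPM in the sham pools and 123 and 449 CPM in the 24 h pools (log2 3.95 ± 0.62, adjusted p = 0.00197). Cd5l, a protein secreted by Kupffer cells, went from 122 and 135 to 166 and 302 CPM (log2 0.86 ± 0.24, adjusted p = 0.0324, and 0.325 without 24 h pool 2). These were the 2 rises among 14 Kupffer cell and macrophage genes, with 0 falls and a median of 0.15. The list summed to 878 and 896 CPM in sham and 854 and 1628 CPM at 24 h, so that only pool 2 stood above sham. Without 24 h pool 1, 5 of the 14 rose; without 24 h pool 2, 1 rose and 2 fell. Clec4f, which defines Kupffer cells, was at 139 and 136 CPM in the sham pools and 97.8 and 105 CPM in the 24 h pools (log2 -0.44 ± 0.15, adjusted p = 0.073). The 8 neutrophil markers measured were all unlisted in sham pool 2 and summed to 14.1 CPM in sham pool 1 and 8.45 and 60.7 CPM at 24 h. Sinusoidal endothelial markers summed to 499.6 and 477 CPM in sham and 435 and 461 CPM at 24 h, with 0 rises and 1 fall among 13. Of 12 stellate cell and matrix genes 3 rose and 1 fell (rises 3 without 24 h pool 1, 0 without 24 h pool 2, 1 without sham pool 1 and 0 without sham pool 2): the collagen IV chains Col4a1, from 47.3 and 45.0 to 78.0 and 122 CPM (log2 1.11 ± 0.22, adjusted p = 0.00634, and 0.0576 without 24 h pool 2), and Col4a2 (log2 0.91 ± 0.20, adjusted p = 0.0126, and 0.111 without 24 h pool 2), and Sparc, a matrix-binding protein (log2 0.79 ± 0.18, adjusted p = 0.0132, and 0.117 without sham pool 2). The fall of this list was Colec11 (log2 -1.04, adjusted p = 0.00638 in the main test), a call that ended without sham pool 1. The part of these cell types in the inflammatory and matrix genes above was not tested.

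Over the 8026 genes the pools at 24 h differed more than the sham pools. The SD of the log2 difference between pools was 0.43 at 24 h and 0.27 in sham. At 24 h 248 genes differed over 2-fold (160 higher in pool 1 and 88 in pool 2), against 42 in sham. All of these genes have at least 52 reads in sham pool 2, so genes far lower there than in sham pool 1 are missing from the sham spread. Socs3, at 21.6 CPM in sham pool 1 and unlisted in sham pool 2, is such a gene. No such limit acts on the 24 h pools, so the spreads of the groups are not fully comparable. Medians of pool 1 minus pool 2 at 24 h were -0.87 for the macrophage list, -0.74 for 20 interferon-inducible genes and -0.95 for 4 genes of MHC class II. In sham these medians were 0.01, -0.55 and -0.16, so the sham pools also differed over the interferon list. At 24 h the medians were 0.40 for the PPARalpha list and 0.55 for the male-biased list, and 0.08 for the replication list and 0.03 for fatty acid synthesis. In sham they were -0.01, 0.18, 0.15 and -0.12 for these lists in the same order. The part of this difference between pools in the calls was not tested beyond the fits without each pool. Whether counting used strand is unknown here, which leaves reads of overlapping genes without a sure owner. Among the genes above, exons of Ccnd1 overlap those of LTO1, Mcm7 those of Ap4m1 and Cops6, Pklr those of Hcn3, Nop56 those of Idh3b, Tk1 those of Afmid, Nr1d1 those of Thra, Nr1i3 those of Tomm40l, Rfc2 those of Lat2, Col4a1 those of Col4a2, Lig1 those of Zswim9, Gls2 those of Spryd4, Prc1 those of Rccd1 and Srebf1 those of Rai1. The same holds for Acaa1b with Dlec1, C2 with Zbtb12, Glul with Teddm2, Serpina3m with Serpina3k, Shmt1 with Smcr8, Slc25a25 with Naif1 and Rbm3 with an antisense gene. Exons of Abcb11, Apoa4, Apoc2, Arntl, Axin2, Bhlhe40, Cdkn1a, Cebpa, Cyp2f2, E2f8, Gadd45a, Pkm, Plk1, Pole, Rhbg, Slc16a5, Stmn1, Trf, Tuba8 and Zfp36 overlap those of gene models without a standard name.

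**Figure D4:**
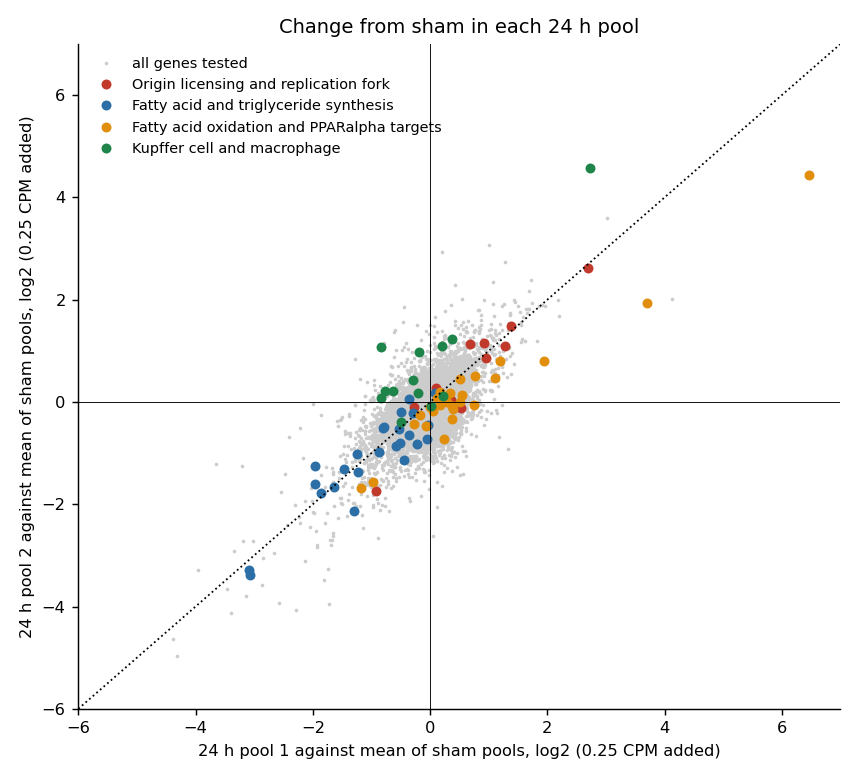
Log2 difference of each 24 h pool from the mean of the sham pools for the 8026 genes (grey, 0.25 CPM added), with 4 gene lists coloured; pool 1 is on the horizontal axis and pool 2 on the vertical, and the dotted line marks equal change. Replication genes (red) and fatty acid synthesis genes (blue) lie near the line, PPARalpha targets (orange) mostly below it and macrophage genes (green) mostly above it.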

How the data were processed

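Polyadenylated liver RNA, pooled from 3 mice per library, was sequenced by the authors, with 2 libraries per time. The deposited tables give, per the file headers, uniquely mapped read counts per gene and RPKM values. Reads were placed on mm10, per the submitters' processing notes. No source used here names the aligner, the counter or a strand setting. RPKM values recomputed from the deposited counts, gene lengths and totals matched within 4.98e-06. Totals were 7.78 M to 9.16 M reads, and 3 reads correspond to at most 0.386 CPM. Complete tables exist for 16 of 18 libraries; sham replicate 2 ends at 52 reads, and the first 0.5 h table, which ends at 157 reads, was left out of the fits.

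Counts were tested with edgeR 4.0.16 (R 4.3.3), TMM factors and the quasi-likelihood test, with Benjamini-Hochberg adjustment over all genes of a test and a threshold of 0.05. Genes needed 10 reads at the median library size in 2 libraries and 15 in total. The main fit used 17 libraries of all times, which share the estimate of spread, and the second used the 16 complete libraries. The edgeR fold changes used the package's default prior count, and a prior count of 2 entered only the limma runs. Alternatives were RLE factors, totals alone, DESeq2 1.42.0, limma 3.58.1, other minimums, only the groups compared, a replicate block, both limits for unlisted genes and each library left out. Scripts were tested on simulated data. Figures add 0.25 CPM where a log2 value per pool is drawn.

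Named genes were the 12 largest rises and 12 largest falls among called genes with a mean of at least 10 CPM whose groups do not overlap, and the 12 largest rises among genes unlisted in sham replicate 2 with both 24 h pools above its bound; unnamed gene models, such as Rik and Gm names, were left out of both. From each list the key members and up to 6 called members with the smallest p were named. The comparison and the lists were chosen with earlier results of these data known. Gene names and upstream sequences were taken from RefSeq on GRCm38.p6, which named 16985 of 17180 genes; 9756 of the 12199 tested genes had an upstream sequence.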

Additional observations from a re-analysis of the deposited data

Results flagged for a closer look

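The genes named for the size of their 24 h change were also compared with the neighbouring times by edgeR's quasi-likelihood test over 12199 genes, and those with an adjusted p under 0.05 are given here. They were chosen for their 24 h values, so part of each difference is set by the choice. Of the 36 genes, 16 differed between 24 and 48 h, 24 differed between 4 and 24 h, and 13 did both. From 24 to 48 h the log2 differences of the genes that were higher at 48 h were Egr1 2.58, Gdf15 1.32, Inmt 2.74, Lpin1 1.57, Prc1 2.90, Selenbp2 2.21, Thrsp 1.48, Top2a 1.65 and Upp2 1.11. Those of the genes lower at 48 h were Apcs -2.36, Cyp1a1 -6.12, Cyp4a31 -0.92, Egln3 -1.34, Inhbe -1.41, Mup12 -1.91 and Rbm3 -1.07. From 4 to 24 h the log2 differences of the genes higher at 24 h were Apoa4 2.51, Ccne1 2.02, Cyp1a1 7.27, Cyp4a10 2.16, Cyp4a31 1.04, Egln3 1.82, Gstm3 2.37, Inhbe 1.30, Lig1 3.04, Mcm5 3.42, Mcm6 3.00, Pole 2.60, Top2a 1.55, Tuba8 2.69 and Uhrf1 3.68, and those of the genes lower at 24 h were Apcs -1.42, Egr1 -1.68, Gdf15 -2.85, Inmt -2.04, Lpin1 -3.33, Selenbp2 -2.51, Thrsp -3.36, Ugt2b38 -2.02 and Upp2 -4.00. Selenbp2, Upp2, Thrsp, Lpin1, Egr1, Inmt and Gdf15, all below sham at 24 h, lay below their 4 h level and were higher again by 48 h.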

How the results depend on the processing

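No direction of the 36 genes with the largest changes reversed in any alternative run. They were chosen for large changes with both 24 h pools beyond the sham pools or above the bound. The lack of reversals was therefore largely set by the choice and is no test of their directions. The balance of higher and lower calls over all genes did reverse in some runs. Of the values for single named genes, 388 kept their direction and call and 47 lost the call. For genes listed in both sham tables, library totals alone gave 820 higher and 360 lower genes, against 405 and 532. Fitting only the groups compared gave 401 calls, 158 higher and 243 lower. Other factors, DESeq2, limma and stricter minimums gave 848 to 1067 calls. Leaving out 1 library gave 269 to 930 calls, 79 to 402 higher and 190 to 528 lower. Among genes unlisted in sham pool 2, DESeq2 called 91 higher, against 58. No minimum gave 227 calls, 175 higher and 52 lower, and only sham pool 1 with 4, 24 and 48 h gave 33, 26 higher and 7 lower. Unlisted genes set at the upper bound gave 153 calls, 62 higher and 91 lower, against 58 and 22, and set at 0 gave 0 lower, as their construction lowers or raises the 24 h difference. Leaving out a 24 h library gave 17 to 85 calls, 13 to 68 higher and 4 to 17 lower. Between 4 and 24 h the calls, 1422 higher and 1308 lower, became 1072 and 1493 without 24 h pool 1, 891 and 1028 without 24 h pool 2, and 1203 and 1215 with DESeq2; totals alone gave 5093 calls, 4582 higher and 511 lower, and leaving out 1 library 1653 to 2565, 846 to 1072 higher and 807 to 1493 lower. Between 24 and 48 h they were 512 and 290, and 559 and 663 without 24 h pool 2; totals alone gave 175 lower, and leaving out 1 library 221 to 1222, 159 to 559 higher and 36 to 663 lower. The cause of the other changes was not tested.

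Whether replicate numbers pair the samples is not known, and a single difference between pools per group cannot settle it. Deviations of same-numbered pools correlated at -0.51 to 0.47 over 28 pairs of groups, 11 of them over 0.1. Between sham and 24 h the correlation was 0.29. A fit with the replicate block gave 990 calls, 422 higher and 568 lower, for genes in both sham tables, and 59 for genes unlisted in sham pool 2, 46 higher and 13 lower. It gave 2717 calls between 4 and 24 h and 807 between 24 and 48 h. With 2 pools per group, and no value below 52 reads in the table of sham pool 2, 597 of the 4173 unlisted genes had an unadjusted p under 0.05 and 80 were called; the power for scarce genes was not measured.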

Other observations

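Called genes of gene groups outside the comparisons above are given here. Over all 8026 genes of the main test 5.05% were higher and 6.63% lower, and several of the small counts below lie near these shares. Of 18 endoplasmic reticulum stress and chaperone genes 2 fell and 0 rose (median -0.39). Herpud1, which acts in the disposal of misfolded proteins, was at 374 and 533 CPM in the sham pools and 143 and 137 CPM in the 24 h pools (log2 -1.69 ± 0.26, adjusted p = 0.00171). Sel1l, of the same disposal complex, was at 337 and 303 CPM in the sham pools and 205 and 182 CPM in the 24 h pools (log2 -0.72 ± 0.17, adjusted p = 0.0172, and 0.12 without sham pool 1). In polyamine metabolism Odc1, the first enzyme of synthesis, rose from 122 and 103 to 243 and 167 CPM (log2 0.87 ± 0.20, adjusted p = 0.0144, and 0.119 without sham pool 2). Paox, an oxidase of polyamines, fell from 25.5 and 34.9 to 12.4 and 16.994 CPM (log2 -1.04 ± 0.21, adjusted p = 0.00873, and 0.0912 without sham pool 2). These were the 2 calls among 8 genes. Among 18 NRF2 targets and antioxidant genes 2 rose and 1 fell. Catalase, Cat, fell from 4527 and 4349.6 to 2392 and 2261 CPM (log2 -0.93 ± 0.14, adjusted p = 0.00185). Sulfiredoxin, Srxn1, rose from 38.3 and 34.1 to 61.1 and 93.7 CPM (log2 1.09 ± 0.29, adjusted p = 0.0258, and 0.178 without 24 h pool 2). Glutathione reductase, Gsr, rose from 88.0 and 72.9 to 102 and 117 CPM (log2 0.45 ± 0.13, adjusted p = 0.0391, and 0.275 without sham pool 2). Tmprss6, a protease that restrains hepcidin, was the 1 call among 13 iron genes and fell from 354 and 381 to 200.4 and 225 CPM (log2 -0.79 ± 0.12, adjusted p = 0.00206). Of 10 amino acid transporter genes 2 fell and 0 rose: Slc38a4 from 819 and 789 to 453 and 411 CPM (log2 -0.90 ± 0.12, adjusted p = 0.000762). Slc38a3 went from 922 and 1156 to 505 and 649 CPM (log2 -0.85 ± 0.23, adjusted p = 0.0282, and 0.181 without sham pool 2).

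Of 20 interferon-inducible genes 1 fell and 0 rose (median -0.48). The antiviral gene Rsad2 went from 20.5 and 31.0 to 12.2 and 9.01 CPM (log2 -1.28 ± 0.26, adjusted p = 0.00865, and 0.0941 without sham pool 2). Cd74, the invariant chain of MHC class II, was at 67.9 and 85.9 CPM in the sham pools and 29.1 and 50.2 CPM in the 24 h pools and was not called (log2 -0.96 ± 0.39, adjusted p = 0.134). The MHC class II genes had a median of -0.83 over 4 measured. Alas2, the erythroid enzyme of haem synthesis, fell from 184 and 135 to 79.0 and 66.0 CPM (log2 -1.14 ± 0.27, adjusted p = 0.0177, and 0.148 without sham pool 1). Among 20 splicing factors 3 rose and 1 fell: Srsf6 rose from 83.3 and 77.9 to 129 and 102 CPM (log2 0.52 ± 0.15, adjusted p = 0.0366, and 0.189 without sham pool 2). Srsf5 fell from 114 and 82.8 to 66.9 and 47.3 CPM (log2 -0.78 ± 0.23, adjusted p = 0.0448, and 0.321 without sham pool 1). Hnrnpd rose from 42.4 and 45.1 to 57.3 and 57.9 CPM (log2 0.40 ± 0.11, adjusted p = 0.0359, and 0.216 without sham pool 1). Scaled by library totals alone 8 of these splicing factors rose and 0 fell. In the second test the checkpoint kinase gene Chek2 rose from 1.37 to 5.64 and 5.96 CPM (log2 2.07 ± 0.52, adjusted p = 0.0495). The call ended without 24 h pool 2. Both 24 h values also lay below 6.55 CPM, the bound under which sham pool 2 is unknown. Fabp4, a fatty acid binding protein, went from 6.61 to 19.1 and 15.6 CPM (log2 1.39 ± 0.30, adjusted p = 0.0277, and 0.0602 without 24 h pool 1).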
